A study of Mus musculus with 6 samples.

Results

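The mRNAs described here are 38 genes of the hypoxia-inducible factor (HIF) pathway, among 22048 genes measured by RNA-Seq in fetal mouse hypothalamic neural stem/progenitor cells (NSC/NPCs). They comprise 5 genes of oxygen sensing and HIF turnover, 4 HIF subunits and 29 genes known as HIF targets. All 38 were found in the table by gene symbol, and all 38 passed the filter on low values, which kept 13952 genes in all. The list was selected on values of these same 6 samples, since the low RPKM of many of its genes in 1 sample, HE3, was known when it was drawn up. The HE3 values below are therefore a description without a test, and the count of members low in HE3 supports nothing about the pathway as a whole.

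The cells were grown as neurospheres, floating clusters of dividing cells, from male C57BL/6 fetuses at embryonic day 14.5 and were harvested at first passage. In the high estradiol (HE) group the dams, 8 weeks old, had been given estradiol valerate by gavage at 100 μg/kg/d between E5.5 and E11.5. In the control (NC) group the dams had received corn oil alone, although the treatment field of the labels calls these samples untreated. Each group had 3 samples, and each sample pooled the cells of 2 mice, so p-values measure the spread between such pools, and nothing in the sources says whether pools came from separate litters. The labels name no altered allele, and the estradiol was given to the dam and not to the culture.

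HIF is a transcription factor made of an oxygen-sensitive alpha subunit and a stable beta subunit. In oxygen, prolyl hydroxylases of the Egln family mark the alpha subunit, the Vhl protein binds the mark and the subunit is degraded. When oxygen is short the alpha subunit persists, pairs with Arnt and turns on genes for glucose uptake, glycolysis, mitophagy, pH control and blood vessel growth. This control acts mainly on the alpha protein, whose mRNA need not change. In the fetal brain neural progenitors divide in tissue of low oxygen, and Vegfa from neural progenitors is known to guide vessel growth.

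HE3 stood apart from the other 5 samples across all genes. It had the fewest reads on genes, 16078675 against 17904879 to 19137059. For pairs of samples of the same group the chi-square statistic per gene was 15.6 between HE1 and HE2 and 21.4 to 45.4 among the NC samples, against 85.0 and 80.4 between HE3 and HE1 or HE2. No pair agreed within sampling noise. Sox2 and Nes, which define these cells in the study, were at 97.3 and 247 RPKM in HE3 against 172 to 209 and 154 to 204 RPKM in the other 5 samples. Markers within a cell type did not move one way, and sums of RPKM follow their few abundant genes. The summed RPKM of 14 neural stem and progenitor markers was 3011 to 3781 in the other 5 samples and 4730 in HE3, of which Fabp7 made up 736 to 1373 and 2383. Of the 13 tested, however, 5 were at least 2-fold lower in HE3 and 1, Fabp7, at least 2-fold higher, and the median log2 difference from the other 5 was -0.82. Over 9 oligodendrocyte lineage markers the sum was 291 to 371 and 515, mostly Olig1 and Olig2, while 4 of 8 tested were at least 2-fold lower and 1, Olig1, higher, with a median of -1.09. Over 11 neuron markers it was 123 to 156 and 278, with 3 of 11 lower, 2 higher and a median of 0.19. Over 8 astrocyte markers it was 1182 to 1808 and 995, with 1 of 8 lower and a median of -0.32. Over 10 endothelial markers it was 4.02 to 8.36 and 5.99, with none of 6 tested beyond 2-fold, and over 11 mesenchymal and mural markers 64.1 to 211 and 99.1, with 1 of 10 lower. Over 11 microglia and macrophage markers it was 12.8 to 22.1 and 39.4, with 1 of 6 lower and 2 higher. Over 8 erythroid markers it was 0.57 to 0.72 and 4.45 RPKM, but only Alas2 passed the filter and it was lower in HE3, by a log2 difference of -1.09. The higher sum in HE3 came from other erythroid genes, which reached the filter's reads in too few samples to be tested. Hba-a2 and Hbb-y were at 0 in every sample. In bulk samples such as these, fewer cells of a type and less RNA per cell cannot be told apart, and the part of these markers in the results below was not tested.

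In HE3, 28 of the 38 members were at least 2-fold lower than the mean of the other 5 samples, and none was 2-fold higher. Vegfa, the main signal for vessel growth, was 12.1-fold lower in this sample, Slc2a1, the major glucose transporter, was 6.53-fold lower, and Car9, a carbonic anhydrase of the cell surface that regulates pH, was 18.6-fold lower. Differences are on the log2(RPKM + 0.1) scale, HE3 minus the mean of the other 5, which understates those of mRNAs at low levels. Of all genes tested, 12.6% were at least 2-fold lower in HE3 and 2.06% at least 2-fold higher. The median member was lower by 2.81-fold in HE3, a log2 difference of -1.49, where the median of all genes tested was -0.16. HE3 was the lowest of the 6 samples for 31 members and the highest for none, against 44.4% and 24.5% of all genes tested. The summed RPKM of the 38 members was 3804 to 4288 in NC, 3964 in HE1, 4240 in HE2 and 1641 in HE3. Since the members were chosen with the HE3 values in view, these shares say how far they lie from other genes and nothing more.

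**Figure D1:**
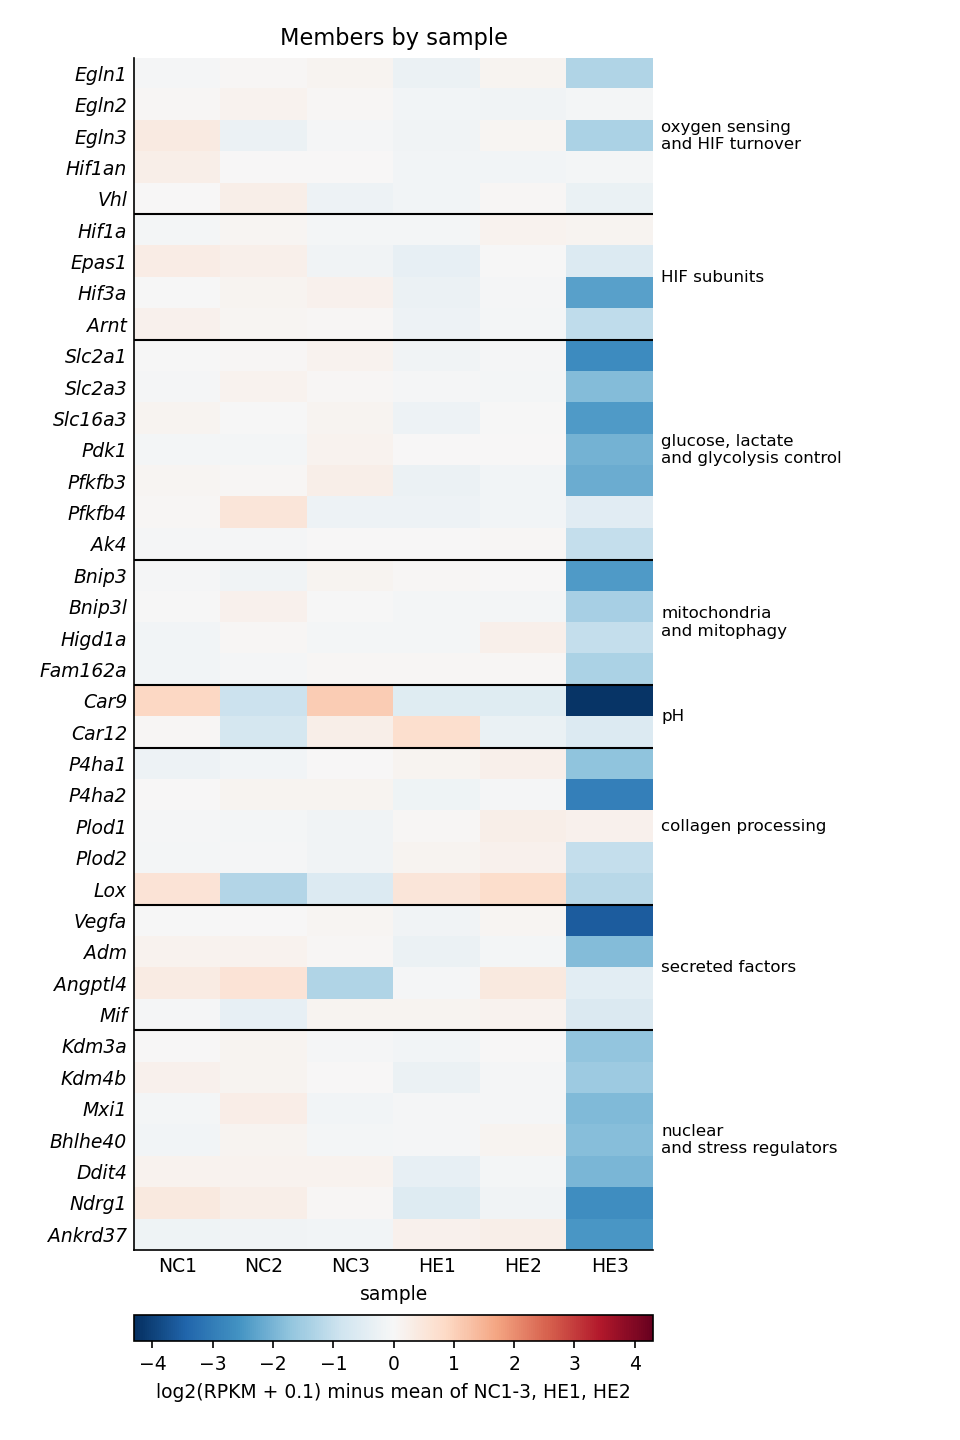
The 38 members by sample, grouped by role. Colour gives log2(RPKM + 0.1) minus the mean of NC1, NC2, NC3, HE1 and HE2, with blue for lower values. The HE3 column holds the lowest value of 31 members and reaches -4.22 for Car9, while Hif1a, Plod1, Egln2 and Hif1an are near 0 in it.

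**Figure D2:**
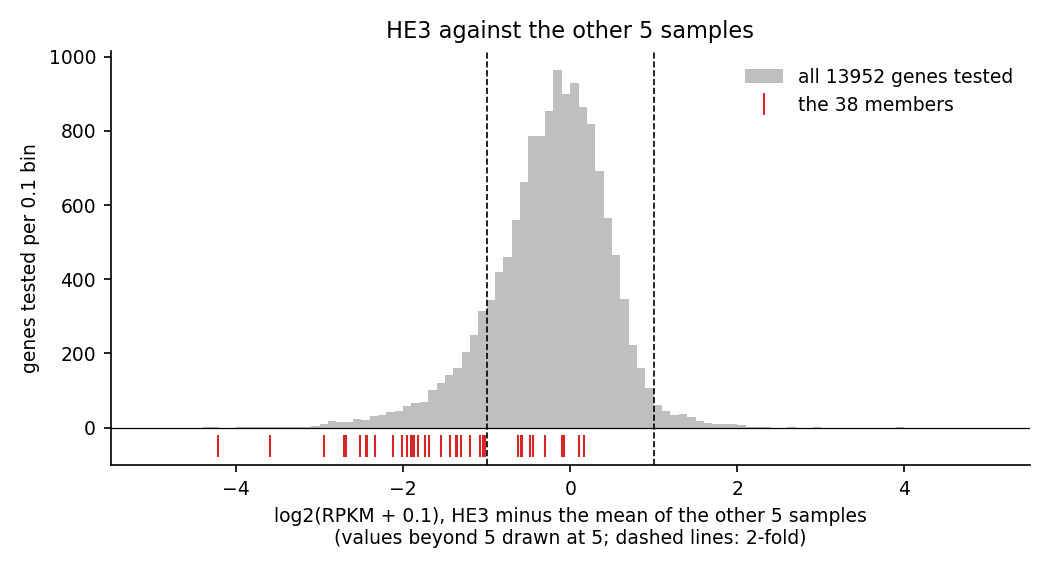
Histogram of the log2 difference between HE3 and the mean of the other 5 samples for 13952 genes tested (grey), with the 38 members as red marks below the axis. Of the marks, 28 lie left of the dashed line for 2-fold lower and none lies right of the line for 2-fold higher, against 12.6% and 2.06% of all genes tested.

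Over the other 5 samples, NC1, NC2, NC3, HE1 and HE2, the members' coefficient of variation had a median of 11.03%, near the 13.73% of all genes tested. It was under 15% for 30 of the 38, against 55.2% of all genes. Relative to the NC mean, the median member was at -0.13 in HE1, -0.03 in HE2 and -1.56 in HE3 on the log2 scale. The least steady members over these 5 samples were Car9, Lox, Angptl4 and Car12. At the edge of the 2-fold limit, Higd1a, Plod2 and Ak4 were just inside with log2 differences of -1.02, -1.04 and -1.04, and Mif was the nearest outside with -0.63.

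HIF binds DNA at a short core, ACGTG or GCGTG. The windows from 250 bases before to 50 bases after the start of transcription, from RefSeq in the GRCm38.p6 build, were searched for both on either strand. A window was found for 29 of the 38 members. Of their 40 windows 32, or 80.0%, held at least 1 match, against 60.8% of the 13969 windows of all genes tested. Of the 31 windows of members at least 2-fold lower in HE3, 83.9% held a match, and of the 9 windows of the other members 66.7% did. These windows belong to 21 and 8 members. Some windows of the same gene overlap, as in Ak4, so they are not separate cases. Over all tested genes at least 2-fold lower in HE3 the share was 57.7%. The median GC content was 64.3% for members and 60.7% for all genes tested, and these motifs hold a CG pair. A match is a description of the letters and not a site of binding. Shown are the 250 bases before the start for the 3 members lowest in HE3 that have a single window, Car9, P4ha2 and Slc2a1, and for Hif1an, the member with a single window that is nearest to no difference. Capitals mark the matches, written as they stand on the gene's strand, so that CACGT and CACGC are matches on the opposite strand.
Car9, chr4:43506776-43507025, plus strand: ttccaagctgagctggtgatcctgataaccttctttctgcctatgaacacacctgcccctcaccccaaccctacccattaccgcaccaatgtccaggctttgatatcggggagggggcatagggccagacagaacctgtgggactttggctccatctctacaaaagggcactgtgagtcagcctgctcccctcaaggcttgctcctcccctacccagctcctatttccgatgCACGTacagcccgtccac
P4ha2, chr11:54100674-54100923, plus strand: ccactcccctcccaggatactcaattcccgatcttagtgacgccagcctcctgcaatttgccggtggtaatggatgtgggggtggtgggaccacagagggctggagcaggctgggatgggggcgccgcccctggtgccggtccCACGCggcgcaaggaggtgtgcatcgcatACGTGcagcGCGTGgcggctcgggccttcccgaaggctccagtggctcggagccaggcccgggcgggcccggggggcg
Slc2a1, chr4:119108495-119108744, plus strand: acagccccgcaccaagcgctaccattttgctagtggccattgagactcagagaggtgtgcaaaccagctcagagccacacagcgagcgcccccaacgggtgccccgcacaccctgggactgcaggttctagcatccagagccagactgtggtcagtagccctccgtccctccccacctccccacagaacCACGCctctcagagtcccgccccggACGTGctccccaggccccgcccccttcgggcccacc
Hif1an, chr19:44562604-44562853, plus strand: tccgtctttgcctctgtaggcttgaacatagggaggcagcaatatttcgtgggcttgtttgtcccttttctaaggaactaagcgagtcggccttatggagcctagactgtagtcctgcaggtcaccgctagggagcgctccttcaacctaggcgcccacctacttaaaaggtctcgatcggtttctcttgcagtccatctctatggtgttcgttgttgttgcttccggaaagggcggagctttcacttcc
Car9 had 1 match, 18 bases before its start. P4ha2 had 3 in the bases shown, at 107, 78 and 69 bases before its start, and 1 more at 10 bases after it. Slc2a1 had 2, at 61 and 36 bases before. Hif1an had none. Windows of members at least 2-fold lower in HE3 held a mean of 1.97 matches, and those of the other members 1.56. Egln2 had a window with 6 matches and another with 1, and Hif1a one with 3, and neither gene was lower in HE3 by 2-fold. Whether the count of matches goes with the level in HE3 was not tested.

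The oxygen sensors divided by gene. Egln1, which encodes the main prolyl hydroxylase for HIF, was at 66.8, 72.3 and 76.2 RPKM in NC1 to NC3 and 59.1, 75.9 and 28.2 in HE1 to HE3. Egln3, a close relative, was at 26.3, 16.6 and 19.2 RPKM in NC1 to NC3 and 18.1, 21.1 and 7.71 in HE1 to HE3. Both were lowest in HE3, by 2.47-fold and 2.57-fold, and in both HE2 lay within the NC range. Both are known as HIF targets themselves. Egln2, the third enzyme and not known as a strong HIF target, was at 51.4, 55.6 and 51.3 RPKM in NC1 to NC3 and 46.3, 44.8 and 47.0 in HE1 to HE3. Its 3 HE values lay below its 3 NC values, with HE3 the highest of the HE samples, but overlapped them under median-of-ratios scaling. Hif1an, the asparagine hydroxylase that blocks the activity of HIF-α, was at 5.55, 4.66 and 4.66 RPKM in NC1 to NC3 and 4.26, 4.27 and 4.34 in HE1 to HE3, and the same held for its groups under both scalings. Vhl, the part of the ubiquitin ligase that recognises HIF-α, was at 22.3 to 30.8 RPKM in NC, 23.9 and 26.3 in HE1 and HE2 and 20.9 in HE3, a difference of -0.30.

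The subunits differed as widely. Hif1a, the alpha subunit found in most cells, was at 7.29, 8.21 and 7.31 RPKM in NC1 to NC3 and 7.15, 8.50 and 8.29 in HE1 to HE3. It was as high in HE3 as in the other samples, with a difference of 0.11. Epas1, which encodes HIF-2α, was low throughout, at 1.93, 1.79 and 1.36 RPKM in NC1 to NC3 and 1.17, 1.49 and 0.984 in HE1 to HE3. Hif3a, a variant alpha subunit and known HIF target, was at 0.723, 0.810 and 0.850 RPKM in NC1 to NC3 and 0.591, 0.711 and 0.0649 in HE1 to HE3, and the HE3 value rested on 7 reads. Arnt, the beta partner, was at 5.49, 5.15 and 5.07 RPKM in NC1 to NC3 and 4.14, 4.61 and 2.24 in HE1 to HE3. Hif3a and Arnt were at least 2-fold lower in HE3, their HE values lay below NC also in HE1 and HE2, and Epas1 was lowest in HE3 with HE2 overlapping NC. For Hif3a, HE2 and NC1 had 91 reads each, so that their order is within counting error.

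Of the 7 genes of glucose, lactate and glycolysis control, 6 were at least 2-fold lower in HE3, and the median difference was -2.02. Slc2a1 was at 256, 272 and 292 RPKM in NC1 to NC3 and 237, 255 and 40.0 in HE1 to HE3. Slc2a3, the glucose transporter typical of neurons, was at 71.7, 82.0 and 77.0 RPKM in NC1 to NC3 and 71.2, 70.9 and 20.2 in HE1 to HE3. Both transporters were lowest in HE3, with HE1 and HE2 just below the NC samples. Slc16a3, which exports lactate, was at 71.4, 64.5 and 71.2 RPKM in NC1 to NC3 and 57.0, 65.4 and 11.95 in HE1 to HE3. Pdk1, a kinase that keeps pyruvate out of the mitochondria, was at 38.7, 38.9 and 45.3 RPKM in NC1 to NC3 and 41.5, 41.3 and 10.1 in HE1 to HE3. For both, HE2 lay within the NC range and HE3 far below it. Pfkfb3, an enzyme that makes the activator of phosphofructokinase, was at 48.5, 47.5 and 55.1 RPKM in NC1 to NC3 and 38.2, 41.8 and 10.5 in HE1 to HE3. Ak4, a mitochondrial adenylate kinase, was at 33.1, 33.4 and 35.1 RPKM in NC1 to NC3 and 34.5, 36.0 and 16.7 in HE1 to HE3, the steadiest member over the other 5 samples with a coefficient of variation of 3.43%. Pfkfb4, the relative of Pfkfb3, was at 3.97 to 6.81 RPKM in NC, 4.04 and 4.28 in HE1 and HE2 and 3.33 in HE3, and differed by -0.48 against -2.12 for Pfkfb3.

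All 4 mitochondrial members were at least 2-fold lower in HE3. Bnip3, a receptor for mitophagy, was at 112, 105 and 126 RPKM in NC1 to NC3 and 121, 116 and 21.4 in HE1 to HE3. Bnip3l, its close relative with the same role, was at 61.6, 71.6 and 62.7 RPKM in NC1 to NC3 and 59.9, 59.8 and 23.2 in HE1 to HE3. Bnip3 was the lower of the pair relative to the other samples, by 5.39-fold against 2.71-fold. Fam162a, a hypoxia-induced mitochondrial protein, was at 441, 456 and 495 RPKM in NC1 to NC3 and 491, 488 and 185 in HE1 to HE3. Higd1a, which associates with the respiratory chain, was at 147, 163 and 151 RPKM in NC1 to NC3 and 151, 186 and 78.1 in HE1 to HE3. For Bnip3, Fam162a and Higd1a the HE1 and HE2 values overlapped those of NC.

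The carbonic anhydrases were among the least steady members. Car9 was at 34.2, 9.55 and 39.5 RPKM in NC1 to NC3 and 12.7, 12.7 and 0.891 in HE1 to HE3, with 33 reads in HE3. NC2, HE1 and HE2 were alike and NC1 and NC3 well above them, so that the groups overlapped, and HE3 lay below all 5. Its log2 difference of -4.22 was the third lowest of the 13952 genes tested. Car12, a related enzyme, was at 0.829 to 1.76 RPKM in NC, 2.44 and 1.18 in HE1 and HE2 and 0.945 in HE3, within the range of the others.

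Of 5 members that modify collagen, 4 were at least 2-fold lower in HE3. P4ha2, a subunit of collagen prolyl hydroxylase, was at 28.9, 30.9 and 30.8 RPKM in NC1 to NC3 and 24.9, 27.4 and 3.599 in HE1 to HE3. P4ha1, the other subunit of that kind, was at 108, 116 and 129.6 RPKM in NC1 to NC3 and 137, 148 and 37.8 in HE1 to HE3. HE1 and HE2 lay below NC for P4ha2 and above NC for P4ha1, and HE3 was far below in both. Plod2, a lysyl hydroxylase, was at 14.6, 14.8 and 13.7 RPKM in NC1 to NC3 and 16.7, 17.6 and 7.46 in HE1 to HE3. Plod1, its relative, was at 18.2, 17.7 and 17.1 RPKM in NC1 to NC3 and 19.5, 22.3 and 21.2 in HE1 to HE3, the only member whose 3 HE values all lay above NC. Lox, which crosslinks collagen outside the cell, was at 3.74, 0.978 and 1.64 RPKM in NC1 to NC3 and 3.56, 4.25 and 1.02 in HE1 to HE3, and so HE3 was close to NC2. The summed RPKM of the 11 mesenchymal and mural markers was 158, 64.1 and 95.2 in NC1 to NC3 and 211, 181 and 99.1 in HE1 to HE3, high in the samples where Lox was high, and their part in the Lox values was not tested.

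Of the 4 secreted factors, 2 were at least 2-fold lower in HE3. Vegfa was at 398, 408 and 436 RPKM in NC1 to NC3 and 364, 430.2 and 33.6 in HE1 to HE3. The other 5 samples had a coefficient of variation of 7.06%, with HE2 inside the NC range and HE1 just below it. The HE3 difference of -3.59 was the eleventh lowest of the 13952 genes tested. Adm, adrenomedullin, a vasodilator peptide, was at 94.4, 93.9 and 87.4 RPKM in NC1 to NC3 and 71.9, 80.3 and 23.2 in HE1 to HE3, with HE1 and HE2 also below NC. Mif, a cytokine of broad expression and the most abundant member, was at 1015 to 1392 RPKM in NC, 1422 and 1452 in HE1 and HE2 and 837 in HE3. Angptl4, an inhibitor of lipoprotein lipase, was at 0.402 to 1.75 RPKM in NC, 1.09 and 1.58 in HE1 and HE2 and 0.814 in HE3, within the range of the others.

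All 7 nuclear and stress regulators were at least 2-fold lower in HE3, with a median difference of -1.91. Ndrg1, a stress-response gene, was at 28.9, 26.1 and 22.3 RPKM in NC1 to NC3 and 14.9, 19.4 and 3.30 in HE1 to HE3. Ddit4, an inhibitor of mTOR signalling, was at 369.8, 367 and 369 RPKM in NC1 to NC3 and 260.4, 313 and 85.9 in HE1 to HE3. For both, HE1 and HE2 also lay below all NC samples, and HE3 was far lower again. Ankrd37, a small ankyrin repeat protein, was at 10.5, 10.6 and 11.02 RPKM in NC1 to NC3 and 13.4, 14.1 and 1.99 in HE1 to HE3, with 45 reads in HE3. HE1 and HE2 lay above all NC samples and HE3 below them. Mxi1, an antagonist of Myc, was at 19.8, 25.8 and 19.4 RPKM in NC1 to NC3 and 20.3, 20.5 and 5.53 in HE1 to HE3. Bhlhe40, a transcriptional repressor, was at 55.2, 65.1 and 56.1 RPKM in NC1 to NC3 and 57.9, 64.7 and 16.7 in HE1 to HE3. Both were alike in the 5 samples other than HE3. Kdm3a, a histone demethylase, was at 22.6, 24.1 and 21.2 RPKM in NC1 to NC3 and 20.5, 22.5 and 6.78 in HE1 to HE3. Kdm4b, another, was at 42.3, 39.7 and 37.0 RPKM in NC1 to NC3 and 30.7, 35.6 and 12.5 in HE1 to HE3. In Kdm4b, HE1 and HE2 lay below NC, and in Kdm3a HE2 overlapped it.

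**Figure D3:**
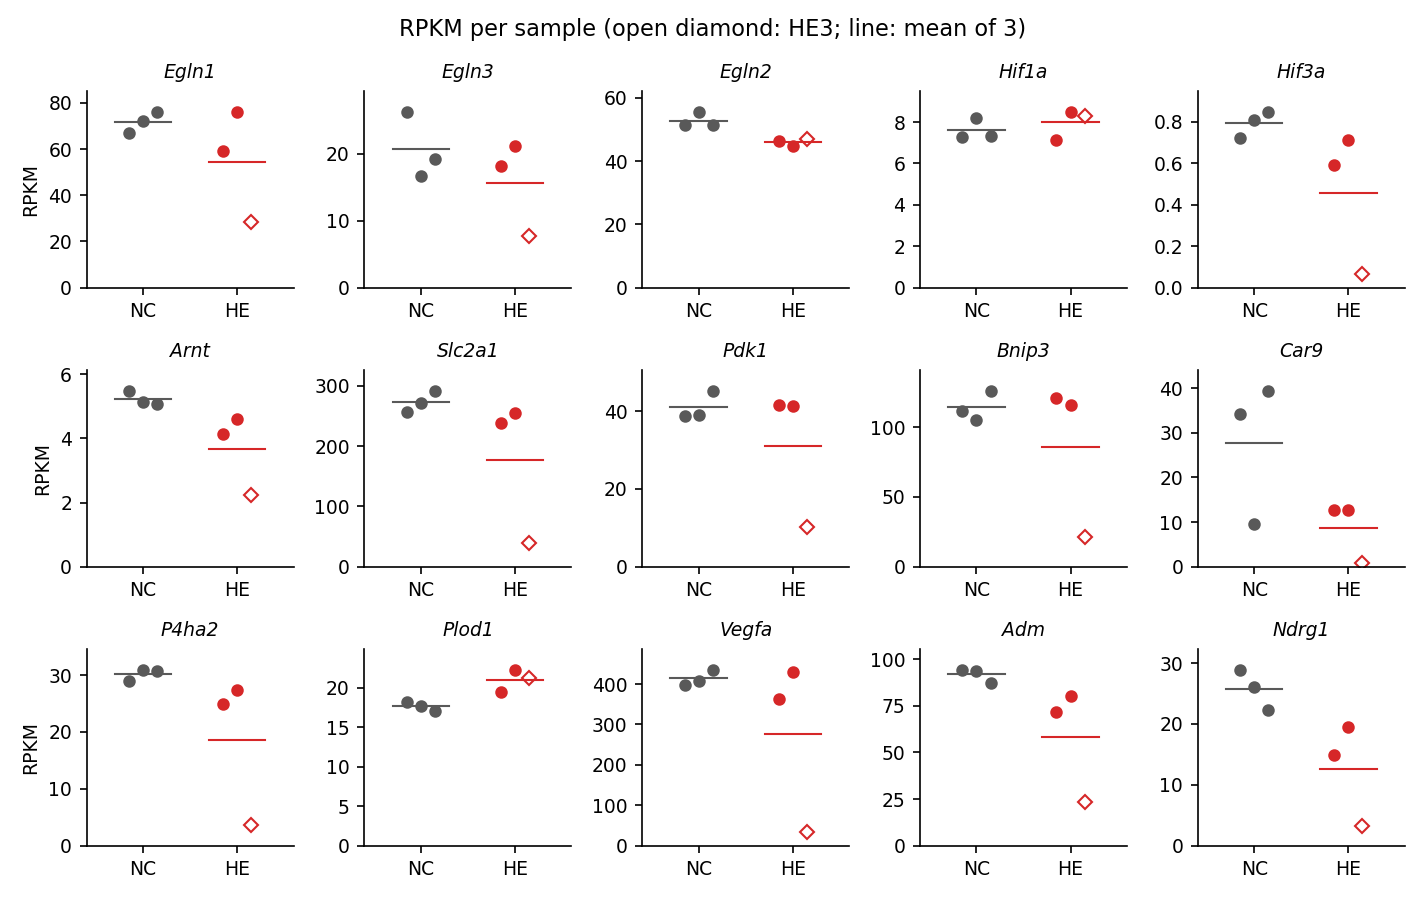
RPKM of 15 members in each sample, with NC in grey, HE in red, HE3 as an open diamond and a line at each group's mean of 3. For Vegfa the diamond is at 33.6 RPKM and the other 5 samples are at 364 to 436, whereas for Hif1a, Egln2 and Plod1 the diamond lies close to the other HE samples.

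Members at least 2-fold lower in HE3 were found at each level and length of mRNA, but mostly among the abundant mRNAs. When genes were split into 4 equal bins by the mean RPKM of the other 5 samples, 7.83% of all genes in the highest bin were at least 2-fold lower in HE3, against 23 of 27 members there. In the lower bins, from the lowest up, 1 of 4, 2 of 4 and 2 of 3 members were, against 19.6%, 13.8% and 9.38% of all genes. These lower bins hold too few members to show whether the difference depends on level. From the shortest to the longest of 4 such bins by gene length, the median difference of all genes was -0.01, -0.11, -0.20 and -0.28. The share of all genes at least 2-fold lower did not follow that order, at 14.7%, 11.6%, 13.0% and 11.3%. The members in these bins had medians of -1.91, -1.30, -1.38 and -1.88, and 7 of 8, 4 of 7, 10 of 14 and 7 of 9 were at least 2-fold lower.

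Genes of the same pathway outside the members differed by kind. Of 35 tested genes of the HIF machinery, which are partners, coactivators, ubiquitin ligase parts and chaperones, 5 were at least 2-fold lower in HE3 and the median difference was -0.01. Of 16 glycolytic enzymes 6 were, with a median of -0.83, and of 65 other genes known to respond to hypoxia 32 were, with a median of -0.93. None of the tested genes of these 3 lists was 2-fold higher in HE3. Of all genes tested, 12.6% were at least 2-fold lower and 2.06% at least 2-fold higher, and the machinery lay near the first share. By the size of the log2 fold change between HE and NC, the leading genes of the machinery were Wsb1, a ubiquitin ligase part and HIF target, Cited4 and the coactivator Ep300, with HE3 differences of -2.43, -1.83 and -1.02. Cited4 had only 2 reads in HE3 and 11 to 20 in the other 5 samples, so its difference carries much counting error. The leading glycolytic genes were Eno2, Hk2 and Gpi1, which encode enolase, hexokinase and glucose phosphate isomerase, at -3.01, -2.08 and -1.81. The leading genes of the third list were Nos2, an inducible nitric oxide synthase, Met, a growth factor receptor, and Cox4i2, the subunit of cytochrome oxidase used in hypoxia, at -2.91, -2.97 and -4.32. Nos2 was at 5.69 and 7.22 RPKM in NC1 and NC2 but at 0.550, 0.291 and 0.582 in NC3, HE1 and HE2 and 0.0987 in HE3, so its difference rests on 2 NC samples. Met was at 4.87 to 7.74 RPKM in NC and already lower in HE1 and HE2, at 3.39 and 2.37, with 0.502 in HE3. Cox4i2 was at 19.1 to 29.4 RPKM in the other 5 samples and 1.03 in HE3. No member of the 3 lists passed the test between HE and NC, with adjusted p-values of at least 0.195 by limma with Benjamini-Hochberg adjustment. Some of these genes were also chosen with results of these data known.

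**Figure D4:**
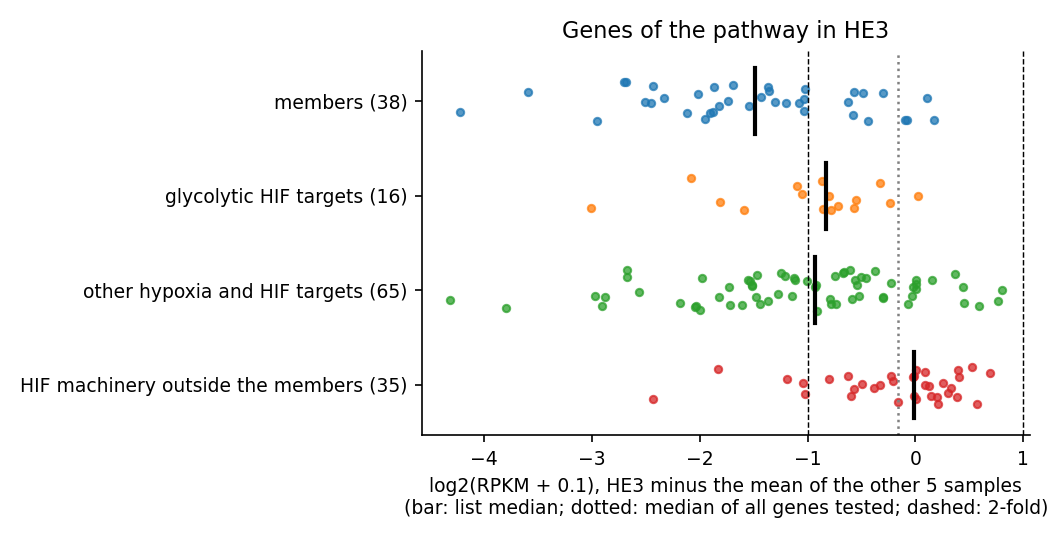
Log2 difference between HE3 and the mean of the other 5 samples for each tested gene of 4 lists, with a black bar at the list's median and the number of genes in brackets. The medians are -1.49 for the members, -0.83 for glycolytic targets, -0.93 for other targets and -0.01 for the machinery, and the dotted line is the median of all genes tested, -0.16.

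HE against NC was tested over all 6 samples with limma, a linear model that pools the estimate of spread over genes, with Benjamini-Hochberg adjustment and limits of 0.05 and 2-fold. None of the 38 members was called, and 0% of the 13952 genes were, with limma on RPKM or with its voom form on read counts. At an unadjusted p under 0.05 by limma, 20.5% of all genes but 1 member passed, Plod1, which was higher in HE. Of all genes, 11.8% were lower in HE at that level and no member was. Low HE3 values widen the spread within HE, and the members' median standard error was 0.429 against 0.190 for all genes. The members were chosen with HE3 in view, and the part of that choice in their few small p-values was not tested. These p-values do not show that the pathway differed less than other genes. Weighting samples by their spread called 268 genes and leaving out NC3 called 103, none of them a member in either case.

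Most members were nevertheless lower in the mean of HE. Of the 38, 33 had a negative log2 fold change and 5 a positive one, or 86.8% negative against 56.2% of all genes, with a median of -0.55 against -0.06 for all genes tested. The 3 HE values all lay below the 3 NC values for 13 members, against 17.9% of all genes, and all lay above for 1, against 14.8%. The 13 were Adm, Bnip3l, Egln2, Ndrg1, P4ha2, Slc2a1, Slc2a3, Ddit4, Hif3a, Arnt, Pfkfb3, Kdm4b and Hif1an. Hif3a is among them although HE2 and NC1 had 91 reads each. With median-of-ratios scaling of the samples, 9 members lay below, and Egln2, Hif1an, Slc2a1 and Slc2a3 no longer did. That scaling also moves the other genes, and no share of all genes is given for it, so the 9 cannot be set against 17.9%. The list was drawn up with this contrast in view too, and these counts are given as a description. For Vegfa the log2 fold change was -1.25 with a standard error of 0.89, and for Car9 it was -2.11 with 1.04. The mean RPKM of Vegfa was 414 ± 19.6 in NC and 276 ± 212 in HE (SD, n = 3), and that of Slc2a1 was 273 ± 18.1 and 177 ± 119. The SD was larger in HE than in NC for 31 of the 38 members, or 81.6%, against 67.5% of all genes. Adjusted p-values ran from 0.240 to 0.980 by limma with Benjamini-Hochberg adjustment.

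Without HE3 the picture between the groups was different. With 2 HE samples against 3 NC samples, the members' median log2 fold change was -0.07, against -0.000177 for all genes tested, and 23 members were lower and 15 higher in HE, where 6981 of all genes were lower and 6971 higher. Those within 1.5-fold of NC numbered 35 of 38, against 90.4% of all genes. The median standard error of the members was 0.429 with HE3 and 0.117 without it, against 0.190 and 0.148 for all genes. Vegfa went from -1.25 to -0.06 with a standard error of 0.13, and Slc2a1 from -1.02 to -0.15 with 0.11. Bnip3, Pdk1, Bhlhe40, Ankrd37, P4ha1, Plod2, Ak4, Higd1a, Fam162a and Mif were lower in HE with HE3 and higher without it. No member was called, and 0% of all genes were, with limma and with voom.

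At an unadjusted p under 0.05 without HE3, 10 members passed by limma, or 26.3%, against 19.9% of all genes. HE1 and HE2 both lay below all NC samples for 13 members, or 34.2%, against 20.1% of all genes, and above for 5, or 13.2%, against 20.6%. The smallest adjusted p-values by limma with Benjamini-Hochberg adjustment were those of Ankrd37 and Ndrg1. Ankrd37 was higher by 0.36 (standard error 0.09, adjusted p = 0.151), and Ndrg1 was lower, at -0.59 (standard error 0.16, adjusted p = 0.158). The others at this level were lower for Pfkfb3 (-0.33), Ddit4 (-0.37), Adm (-0.27), Kdm4b (-0.26) and Egln2 (-0.21) and higher for Plod2 (0.26), P4ha1 (0.27) and Plod1 (0.24). Both directions occurred among known targets of the same factor, and neither was past the adjusted limit. Plod1, whose 3 HE values lay above NC, was at 17.7 ± 0.535 RPKM in NC and 21.0 ± 1.42 in HE (SD, n = 3), with log2 fold changes of 0.25 and 0.24 with and without HE3 and adjusted p-values of 0.240 and 0.244 by limma.

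**Figure D5:**
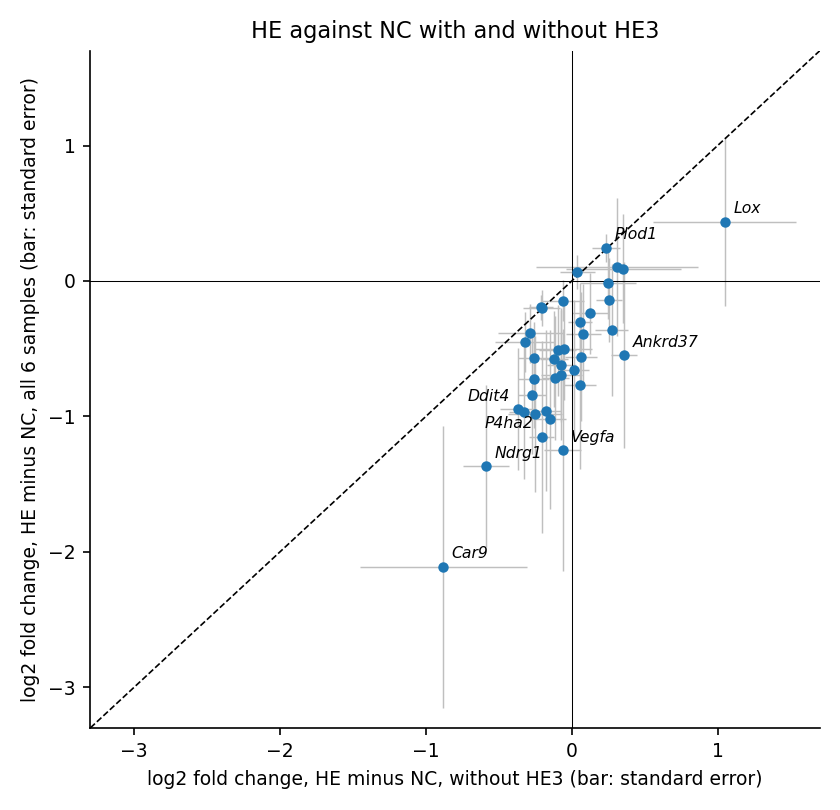
Log2 fold change of HE against NC for each of the 38 members with all 6 samples (vertical) and without HE3 (horizontal). Bars are standard errors and the dashed line marks equal values. Most points lie below the line, with medians of -0.55 on the vertical and -0.07 on the horizontal axis, and Plod1 lies on it.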

How the data were processed

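The data were RNA-Seq of 3 HE and 3 NC samples. The deposited table pairs each gene's raw read count with its RPKM, which the authors scaled for the length of the gene and the total of the sample. Reads had been filtered and aligned with TopHat2 to mm10, and the submitters' processing notes name CASAVA 1.7. The counting tool and its use of strand are not given in the sources used here, so overlapping genes and close relatives could share reads. The paper and the labels name different sequencers.

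Depth was 16078675 to 19137059 reads on genes, and limits from it cover counting error only. A gene was tested if at least 3 samples held the equivalent of 10 reads at median depth and all samples together at least 15. limma 3.58.1 in R 4.3.3 was fitted with a mean-variance trend to log2(RPKM + 0.1), with no term but the group and Benjamini-Hochberg adjustment. The fit was tried on simulated data in which no sample stood apart as HE3 does, so that trial does not cover such a sample. Alternatives were median-of-ratios scaling, a pseudocount of 1, other filters, sample weights, voom, a replicate block and each sample left out. The members and gene lists were chosen with earlier results of these data known. All 38 members are accounted for, and those with every sample's value are the HIF subunits, the Egln genes, members at least 2-fold different in HE3 and members whose groups do not overlap. No count model such as DESeq2 was run, because the counts carry digit-group commas and were not accepted as counts by a check of units. With the commas removed, they were used for voom and for median-of-ratios scaling. The paper called differentially expressed mRNAs with DESeq2, which was not rerun here. Of each other list the 3 genes with the largest fold change are named. Promoter sequences and coordinates are from RefSeq, GRCm38.p6.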

Additional observations from a re-analysis of the deposited data

How the results depend on the processing

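The number of genes called between HE and NC was 0 under another filter, scaling or pseudocount, voom and the replicate block, but 268 with sample weights, which gave HE3 a weight of 0.158 against 0.852 to 2.87. Leaving out each sample in turn gave 0 to 103 genes, with 103 without NC3. Of the members 0 were called in each of these fits. The members' median log2 fold change stayed negative in every fit, from -0.81 without HE2 to -0.07 without HE3, with -0.12 for sample weights. The 3 NC and 3 HE samples share replicate numbers. For each gene tested, the deviation of log2(RPKM + 0.1) from the group mean was taken in every sample. Between samples of the same number these deviations correlated by 0.156, 0.0869 and 0.0603, each best with its own number. Deviations cancel out within a group, so these values depend on one another. They are at most a weak hint of pairing from the data and not from the design. With the replicate block the median was -0.55 and 0 members were called. The median HE3 difference was -1.31 with median-of-ratios scaling, which moves the median of all genes from -0.16 to 0.01, -1.38 with a pseudocount of 1 and -1.44 with at least 10 reads in every sample, which drops Hif3a. The members at least 2-fold lower in HE3 were then 24, 23 and 27, against 9.35%, 5.22% and 10.8% of all genes and 12.6% as reported. Members whose HE values all lay above NC were 1 to 5 when a sample was left out, 2 without HE1 and 5 without HE3. The 5 were 13.2% of members, against 20.6% of all genes without HE3 and 14.8% of all genes with all 6 samples. No share of all genes is given for the other samples left out.

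Members whose direction turned are given as log2 fold changes. When each sample was left out in turn, they ran from -1.02 to 0.36 for Ankrd37, -1.19 to 0.0551 for Bnip3, -0.29 to 0.35 for Car12, -0.71 to 0.27 for P4ha1, -0.36 to 0.26 for Plod2, -0.997 to 0.0185 for Pdk1, -0.49 to 0.0569 for Ak4, -0.50 to 0.13 for Higd1a, -0.63 to 0.0782 for Fam162a, -0.49 to 0.45 for Angptl4, -0.91 to 0.0630 for Bhlhe40 and -0.15 to 0.25 for Mif. With sample weights they were 0.27 for Ankrd37, -0.0026 for Car12, 0.25 for P4ha1, 0.23 for Plod2, 0.0345 for Ak4, 0.18 for Higd1a, 0.0352 for Fam162a, 0.0590 for Bhlhe40 and 0.19 for Mif, and 0.04996 for Mif with median-of-ratios scaling. The HE3 values of Hif3a, Car9, Angptl4 and Ankrd37 rest on 7, 33, 43 and 45 reads, the fewest of the 38 members, and so carry the most counting error.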

Other observations

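One gene of the hypoxia list was picked out after its values were seen. Epo, which encodes erythropoietin, a classic HIF target of kidney, liver and neural cells, had 19, 22 and 15 reads in NC1 to NC3, 25 and 24 in HE1 and HE2 and 0 in HE3, where a count of 0 allows up to 3 reads. Ndufa4l2, a mitochondrial protein induced by HIF, was picked in the same way and had a log2 difference of -2.88 between HE3 and the mean of the other 5 samples.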
